A study of Mus musculus with 4 samples.

Results

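Cytosolic ribosomal protein genes encode the structural proteins of the ribosome, and they were followed here in CD4 T cells from mouse lung with and without TC1 tumors. Members were taken by symbol: those beginning with Rpl or Rps and a digit, Rplp0, Rplp1 and Rplp2, and Rpsa, without the S6 kinases and without symbols marked as pseudogenes, and with at least 100 UMIs (unique molecular identifiers, each 1 captured molecule) over both libraries. The rule gave 83 of 31053 gene rows, of which 17284 held any UMI. It left out 3 matching symbols, Rpl10l with 0 UMIs, Rpl3l with 1 and Rpl39l with 33, and the lowest member inside, Rps19bp1, had 1386. Of the 83 members, 46 were large-subunit and 31 small-subunit proteins, and 6 were copies or relatives that are not the standard protein of their name, namely Rpl22l1, Rpl36al, Rpl7l1, Rps27l, Rps27rt and Rps19bp1.

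Each ribosome is built from a large subunit, which joins amino acids, and a small subunit, which reads the message. In dividing or growing cells the messages for these proteins are translated together, because most begin with an unbroken run of C and T (U in the RNA), the terminal oligopyrimidine tract, which is controlled through the mTOR kinase and the protein LARP1. Naive T cells are small resting cells, and leaving rest is known to be accompanied by new ribosome synthesis. Foxp3 is the transcription factor that marks regulatory T cells, and Ccr7 is a chemokine receptor that naive and resting cells use to enter lymph nodes.

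The tumor lung came from C57BL/6 mice that had received TC1 cells, a transplantable mouse lung tumor line, through the tail vein 3 weeks earlier, and the normal lung came from untreated mice matched for age. No transgene or deletion is named in the labels. Lungs were perfused and digested with collagenase IV and DNase, lymphocytes were enriched on Percoll and with a CD4 selection kit, and live CD4-positive cells were sorted. Each tissue gave 1 library of 5′ gene expression and 1 T cell receptor library from the same suspension, and the number of mice behind a suspension is not stated in the labels. There was therefore 1 library per tissue, no replicate, no test and no p-value, and a batch difference and a tissue difference cannot be told apart. The 95% intervals below cover counting error only, and since UMIs of 1 cell are not independent they are too narrow.

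The tumor library held 35633167 UMIs in 7788 barcodes and the normal library 31697386 UMIs in 7745, and 86 barcode sequences occurred in both. After the cell filters 7135 and 7082 cells were kept, with median depths of 4173 and 3906 UMIs. Of the markers of the labelled cells, Cd3e, an invariant part of the T cell receptor complex, had a UMI in 97.3% and 96.8% of cells, and Cd4 in 58.0% and 55.5%. All 3 erythroid markers were at 0 in both libraries. Cells were split by whether Foxp3 and Ccr7 had at least 1 UMI. The tumor library held 1147 Foxp3-positive cells, 4849 Foxp3-0 Ccr7-positive cells and 1139 Foxp3-0 Ccr7-0 cells, against 206, 6194 and 682 in the normal library. A cell without a UMI may still express the gene.

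Promoter entries of RefSeq (assembly GRCm38.p6) were found for 63 of the 83 members. Within 50 bases on either side of an annotated start, 51 of the 63 (81.0%) held an unbroken run of at least 8 bases made only of C and T on the gene's own strand, against 39.3% of 27025 genes in the table. For runs of A and G on the gene's own strand, which are C and T runs of the opposite strand, the shares were 25.4% and 41.1%. With C and T runs of at least 10 on the gene's own strand the shares were 69.8% and 20.6%. The following sequences, 30 bases each, 5′ to 3′ on the gene's strand with the longest such run in capitals, are members with some of the highest ratios between tissues in Foxp3-positive cells (Rpl7a, Rpl24, Rps12, Rpl27) and members with some of the lowest ratios (Rps28, Rps19, Rps7).
Rpl7a, chr2:26910785-26910814, plus strand: ccccacaaTTCCCTCTTCTTTCTTTCTCCa
Rpl24, chr16:55966231-55966260, plus strand: caaacccaCTCCCCgccaatgctgtaggaa
Rps12, chr10:23787180-23787209, minus strand: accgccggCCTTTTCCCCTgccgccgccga
Rpl27, chr11:101442195-101442224, plus strand: catcctcgCTCCTCCCTCCacacgccggaa
Rps28, chr17:33824562-33824591, minus strand: cccgaggaTTCCTgggtaccgcgtgcggtc
Rps19, chr7:24884623-24884652, plus strand: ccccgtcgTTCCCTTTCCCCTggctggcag
Rps7, chr12:28635910-28635939, minus strand: tgtccccaCCTCTTTTCTTCCgccacccgg
Long and short runs stood on both sides: the run was 21 bases in Rpl7a and 6 in Rpl24, and 13 in Rps19 and 5 in Rps28. Leaving out the copies and relatives, the 48 members with a run of 8 or more had a median log2 ratio between tissues of -0.52 in Foxp3-positive cells, and the 9 without one had -0.48. Counted from the annotated start, the printed runs began at -45 in Rps19, -42 in Rpl27, -36 in Rpl24, -21 in Rps28 and -14 in Rpl7a. In Rps12 and Rps7 they began at bases 9 and 23 after it. A run near an annotated start is a match of letters and not a mapped start of the message, so it need not be the tract.

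A second set of sequences bears on how 2 members were counted. Rps27rt is a retrotransposed copy of Rps27, and the first bases of both genes share a run of 38 among the 50 searched after the annotated start. The capitals mark the part of that shared run inside the 30 bases shown.
Rps27, chr3:90213627-90213656, minus strand: ctttcgctcCTTTCCGGCGGTGACGACCTC
Rps27rt, chr9:114982718-114982747, minus strand: atcccttgCTTTCCGGCGGTGACGACCTCC
The libraries count the 5′ end of messages, and where the reads begin was not measured here. The counts of Rps27 and Rps27rt, and of other members with near-identical pseudogenes, are uncertain where the counting could split them.

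Ribosomal protein messages made up a smaller part of Foxp3-positive cells in the tumor lung than in the normal lung, and nearly the same part of the other cells. In Foxp3-positive cells the members held 21.7% of UMIs in the tumor and 31.1% in the normal library, a ratio of 0.697 (95% interval 0.694 to 0.700). In Foxp3-0 Ccr7-positive cells, the naive-like majority, the shares were 35.6% and 36.5%, a ratio of 0.977. In Foxp3-0 Ccr7-0 cells they were 29.6% and 28.5%, a ratio of 1.04. The tissue difference thus had the size of several percentage points in the Foxp3-positive cells and of about 1 point in the others.

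The spread between single cells was wide in every group. The median Foxp3-positive cell held 19.9% ribosomal protein UMIs in the tumor library, with quartiles of 16.6% and 23.9%, and 31.9% in the normal library, with quartiles of 25.2% and 36.7%. The upper quartile of the tumor cells lay below the lower quartile of the normal cells, although the outer tails overlapped. In Foxp3-0 Ccr7-positive cells the medians were 36.0% and 36.7%. In Foxp3-0 Ccr7-0 cells they were 29.9% and 28.5%, with quartiles from 21.9% to 36.6% over both libraries.

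**Figure D1:**
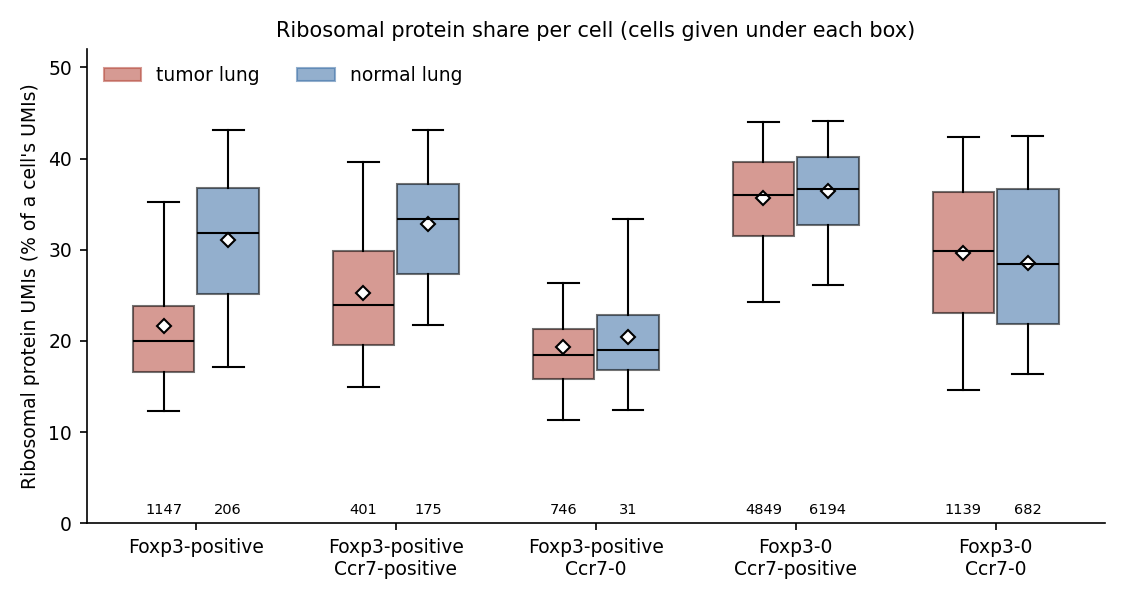
Share of each cell's UMIs held by the 83 ribosomal protein genes, in percent (y axis), by cell group and library, with the Foxp3-positive cells shown together and split by Ccr7. Boxes give the quartiles and median over cells, whiskers the 5th and 95th percentiles, white diamonds the share of the pooled UMIs, and the numbers below the boxes count cells. The Foxp3-positive boxes differ between tissues (medians 19.9% and 31.9%), and the Foxp3-0 boxes nearly coincide.

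Both terms of the share differed. The median Foxp3-positive cell held 959 ribosomal protein UMIs in the tumor and 1252 in the normal library, and 3744 and 2688.5 UMIs of other genes. As ratios of the means per cell, ribosomal protein UMIs stood at 0.856 and other UMIs at 1.40. In Foxp3-0 Ccr7-positive cells these ratios were 1.07 and 1.11. Depth per cell therefore moved with the result in Foxp3-positive cells, with median depths of 4725 and 3995.5 UMIs. When every cell was thinned to 2417 UMIs, leaving out 68 tumor and 13 normal Foxp3-positive cells that were shallower, the shares were 21.3% and 31.0%. In the shallowest of 3 depth classes the shares were 20.1% in 285 tumor cells and 29.3% in 76 normal cells, and in the deepest they were 22.2% and 31.5%.

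The Foxp3-positive groups of the libraries differed in how many cells carried Ccr7. A Ccr7 UMI was found in 35.0% of tumor Foxp3-positive cells (401 cells, Clopper-Pearson 95% interval 32.2% to 37.8%) and in 85.0% of normal ones (175 cells, 79.3% to 89.5%). Among Foxp3-positive Ccr7-positive cells the ribosomal share was 25.2% in the tumor and 32.8% in the normal library, a ratio of 0.769. Among Foxp3-positive Ccr7-0 cells it was 19.3% and 20.4%, a ratio of 0.947, but with only 31 normal cells. Weighting the tumor cells to the Ccr7 makeup of the normal library, a calculation chosen after seeing the data, gave 24.5% against 31.1%, a ratio of 0.787 in place of 0.697.

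The ribosomal share was lower in cells with no Ccr7 UMI in both libraries and both Foxp3 classes. After thinning to 2417 UMIs, Foxp3-positive tumor cells with 0 Ccr7 UMIs held 19.4% (767 cells), those with 1 held 24.8% (93 cells) and those with 4 or more held 26.5% (119 cells). Foxp3-positive normal cells held 23.3% at 0 UMIs (44 cells) and 34.2% at 4 or more (94 cells), while the bins at 1 and 2 UMIs had only 12 and 18 cells. In Foxp3-0 cells the share was 32.2% in the tumor and 31.6% in the normal library at 0 UMIs, and lay between 34.9% and 36.8% in all bins above 0. The step was between no UMI and 1 UMI, with little order among the higher bins of Foxp3-0 cells.

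**Figure D2:**
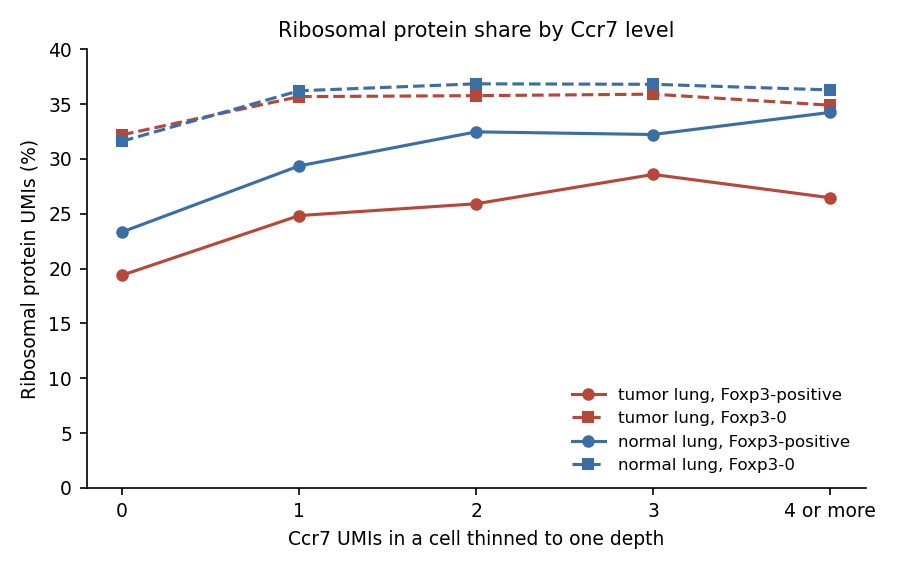
Ribosomal protein share of UMIs in percent (y axis) against the number of Ccr7 UMIs in cells thinned to one depth (x axis), for Foxp3-positive cells (solid lines) and Foxp3-0 cells (dashed lines) of each library. Points are pooled shares without replicate error. At every Ccr7 level the tumor Foxp3-positive cells lie lowest, from 19.4% to 28.6%.

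Member by member, 81 of the 83 genes had a ratio below 1 between the tumor and normal libraries in Foxp3-positive cells. Levels are in CPM, each gene's UMIs as a part of all UMIs of the group, and log2 ratios are tumor over normal. The median member stood at -0.51. For 76 members the whole counting interval lay below 1, for 6 it held 1, and for 1, Rps27l, it lay above. How many of all genes had a ratio below 1, or an interval on either side of 1, was not counted. The intervals of most members are narrow because their UMIs are many. By the 1.5-fold mark 27 members were lower, where 6.99% of 6622 genes tested were lower, and 0 were higher, where 25.5% of genes were higher. The median of all genes tested was 0.21, so relative to the typical gene the median member stood at -0.71. Under scaling to that median, 62 members passed the mark as lower, and Rps27rt turned from 0.11 to below 0. How many of all genes passed the mark under that scaling was not counted, and the 6.99% does not apply to it.

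Members of both subunits were lower. Among large-subunit members 11 of 46 were at least 1.5-fold lower, with a median of -0.47 and a range from -0.81 to -0.02. Among small-subunit members 14 of 31 were, with a median of -0.58 and a range from -0.98 to -0.05. The ranges overlapped almost wholly, and the difference between the subunits was not tested.

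The members with the lowest ratios were mostly small-subunit proteins. Rps29, a small zinc-binding protein of the small subunit, had 3140 CPM in the tumor and 6185 CPM in the normal library, 1.97-fold lower in the tumor. Rps28 had 2339 and 4537 CPM and was 1.94-fold lower. Rps19, whose human counterpart is mutated in Diamond-Blackfan anemia, had 2601 and 4777 CPM and was 1.84-fold lower. All of these intervals were narrow, for Rps29 a ratio of 0.493 to 0.523. Rps3a1 and Rps7, further small-subunit proteins, each had a log2 ratio of -0.83. Rpl8, which lies near the catalytic center of the large subunit, had 2243 and 3930 CPM and was 1.75-fold lower.

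A second set of members differed least from level between the libraries, although relative to the median of all genes they too were lower. Rpl7a, a large-subunit protein, had 1433 CPM in the tumor and 1453 CPM in the normal library, a log2 ratio of -0.02. Rpl24, at the interface between the subunits, had 2324 and 2376 CPM. Rps12, a small-subunit protein, had 2360 and 2436 CPM. For each of these 3 the interval of the ratio held 1, and relative to the median of all genes they stood at -0.23, -0.24 and -0.25. Rpl41, the shortest protein of the ribosome, stood at -0.12 with 5996 and 6506 CPM. Rpl27, a large-subunit protein, stood at -0.20 with 1751 and 2009 CPM, and its interval (0.829 to 0.917) did not hold 1. Relative to the median of all genes Rpl41 and Rpl27 stood at -0.32 and -0.40. These 5, with Rps27l, Rps27rt and Rpl36al, were the 8 members at least 0.3 above the member median, and 7 members were at least 0.3 below it.

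**Figure D3:**
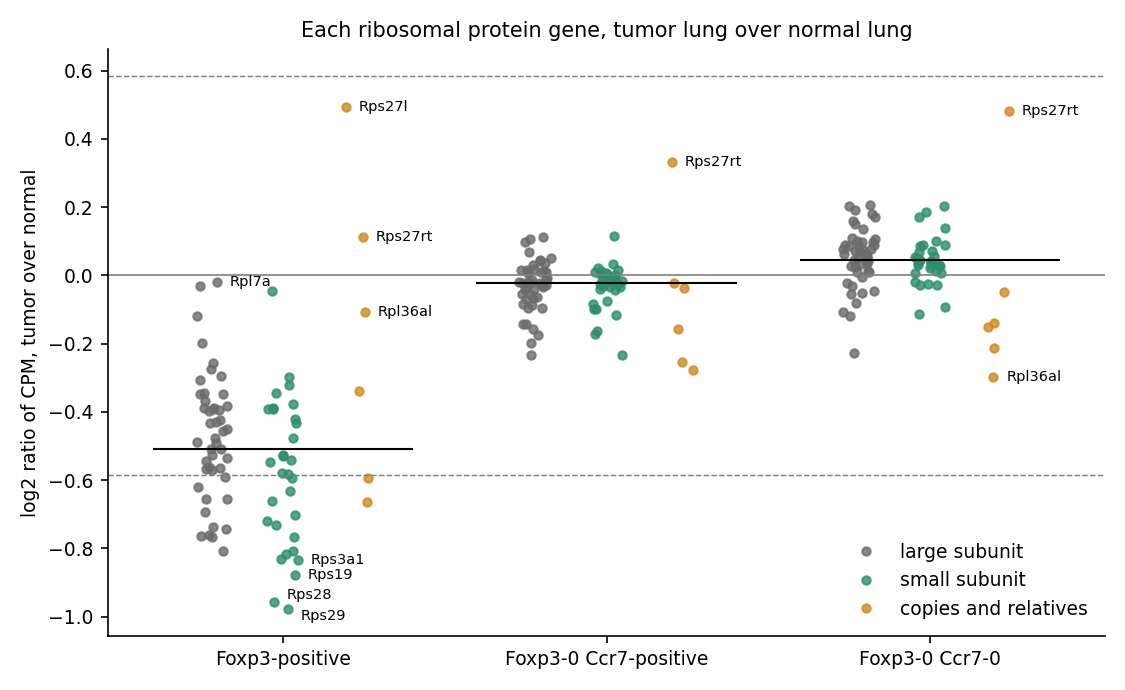
Log2 ratio of CPM, tumor over normal (y axis), for each of the 83 members in 3 cell groups, split into large subunit, small subunit, and copies and relatives. The black bars are medians over members, the dashed lines mark 1.5-fold, and points carry no replicate error. In Foxp3-positive cells 27 members lie below the lower dashed line, and in the other groups none does; Rps27rt lies above 0 here but below 0 when Foxp3-positive ratios are scaled to the median of all genes.

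The 10 members with most UMIs were all lower in tumor than in normal Foxp3-positive cells, and how far they set the pooled share was not tested. Rps24, a small-subunit protein and the member with the most UMIs, had 5830 CPM in tumor and 9603 CPM in normal Foxp3-positive cells, against 12379 and 13036 in Foxp3-0 Ccr7-positive cells and 9769 and 9527 in Foxp3-0 Ccr7-0 cells. Rps27 had 4461 and 7591 CPM in Foxp3-positive cells and 9034 and 9304 in Foxp3-0 Ccr7-positive cells. Rplp0, the base protein of the stalk that recruits elongation factors, had 5025 and 6580 CPM in Foxp3-positive cells. Its partner Rplp1 had 4273 and 5856 CPM. Rpsa, a small-subunit protein also known as the laminin receptor, had 5390 and 6623 CPM. In each of these 5 the tumor Foxp3-positive level was the lowest of the 6 combinations of library and main cell group. The other members among the 10 with most UMIs, beside Rps29 above, showed the same order of the tissues: Rps16 had 3840 and 6726 CPM, Rps15a 5177 and 6789 CPM, Rpl13 4426 and 6562 CPM, and Rps20 3539 and 5756 CPM.

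Foxp3-0 cells did not share a tissue difference of the size seen in Foxp3-positive cells. In Foxp3-0 Ccr7-positive cells the median member had a log2 ratio of -0.02, and 0 of 83 members were 1.5-fold higher or lower, where 4.41% of 9475 genes were higher and 1.75% lower. In Foxp3-0 Ccr7-0 cells the median was 0.05, again with 0 members past the mark, where 6.44% of 6350 genes were higher and 4.55% lower. The whole counting interval lay below 1 for 46 members and above 1 for 19 in Foxp3-0 Ccr7-positive cells. In Foxp3-0 Ccr7-0 cells it lay below for 9 and above for 49, and the intervals of all genes were not counted. Rps29 was the lowest standard member in the first group, with 7718 and 9071 CPM and a log2 ratio of -0.23. Rps27rt was the member furthest above the others in both, with log2 ratios of 0.33 and 0.48.

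Foxp3-positive cells were also split by Ccr7. Among Ccr7-positive ones the median log2 ratio between tissues was -0.37 over 82 members with enough UMIs, or -0.53 relative to the median of all genes. Rps29 stood at -0.73, with 4071 and 6749 CPM, and Rps28 at -0.72. Rpl7a and Rps12 stood at 0.01 and 0.08, or at -0.14 and -0.08 relative to the median of all genes. Among the Ccr7-0 ones the median was -0.06 over 82 members, or -0.18 relative to the median of all genes, resting on the 31 normal cells.

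Within each library, Foxp3-positive cells held a smaller ribosomal share than Foxp3-0 cells, with the larger gap in the tumor library, a difference that was not tested. The share was 21.7% against 34.6% in the tumor library, a ratio of 0.627, and 31.1% against 35.7% in the normal library, a ratio of 0.870. The classes also differed in Ccr7 makeup. Among Ccr7-0 cells the shares were 19.3% against 29.6% in the tumor library and 20.4% (31 cells) against 28.5% in the normal library. Among Ccr7-positive cells they were 25.2% against 35.6% and 32.8% against 36.5%. In the tumor library 47 members were 1.5-fold lower in Foxp3-positive cells, where 10.4% of 9323 genes were, and 1 was higher, Rps27l, where 26.1% of genes were. In the normal library 1 member, Rps27rt, was 1.5-fold lower, where 9.16% of 8844 genes were, and 0 were higher, where 12.4% of genes were. The median member stood at -0.63 in the tumor and at -0.18 in the normal library.

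Although the size differed, members kept much of their order. Over the 83 members the log2 ratios of the 2 libraries, which share no cells, correlated with a Pearson r of 0.82 and a Spearman rho of 0.83 (members are not independent replicates, and both libraries were made with the same chemistry). Rps29 was the lowest standard member in both, at -1.23 in the tumor and -0.51 in the normal library. Rpl8 stood at -1.17 in the tumor and -0.36 in the normal library. Of the 5 standard members furthest above the median between tissues, Rpl7a, Rpl24 and Rpl27 differed little here, at 0.03, -0.04 and -0.05 in the tumor library and at 0.03, 0.11 and -0.01 in the normal library, although Rpl7a lay below 0 in both (-0.17 and -0.03) relative to the median of all genes. The other two, Rps12 and Rpl41, were lower in Foxp3-positive cells, at -0.19 and -0.15 in the tumor library and at -0.17 and -0.08 in the normal library. Since the comparison of Foxp3-positive cells between tissues uses the same Foxp3-positive cells, these values stand beside it and do not add to it.

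The split of Foxp3-0 cells by Ccr7 gave a difference of similar size in both libraries. Ccr7-positive cells held 35.6% against 29.6% in the tumor library, a ratio of 1.20, and 36.5% against 28.5% in the normal library, a ratio of 1.28. Of the members, 79 of 83 in the tumor library and 81 of 83 in the normal library were above 1, with medians of 0.26 and 0.33. The medians of all genes tested were -0.11 and -0.14, and how many of all genes were above 1 was not counted. At 1.5-fold, 0 members were higher in the tumor library, where 2.71% of 8810 genes were, and 2, Rps20 and Rpl12, in the normal library, where 5.63% of 8780 genes were. None was lower, where 10.5% and 13.6% of genes were. The order of members in the 2 libraries was close, with a Pearson r of 0.94 and a Spearman rho of 0.90 over 83 members, and an r of 0.90 over the 77 left without the copies and relatives.

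Some members at the high end of that order were at the low end of the Foxp3 contrast. Rps29 had 7718 CPM in Ccr7-positive and 5756 CPM in Ccr7-0 cells of the tumor library, and 9071 and 6141 CPM in the normal library. Rps19 had 5848 and 4315 CPM in the tumor library and 5903 and 4118 CPM in the normal library. Rpl24 had 2389 and 2403 CPM in the tumor library and 2211 and 2089 CPM in the normal library. Rpl24 was thus near level across Ccr7 in Foxp3-0 cells, while between tissues it was 1.15-fold higher in tumor Foxp3-0 Ccr7-0 cells. In Foxp3-positive cells the same split gave medians of 0.40 in the tumor and 0.65 in the normal library, with Rps29 at 1.35 in the normal library, where the Ccr7-0 side was 31 cells.

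**Figure D4:**
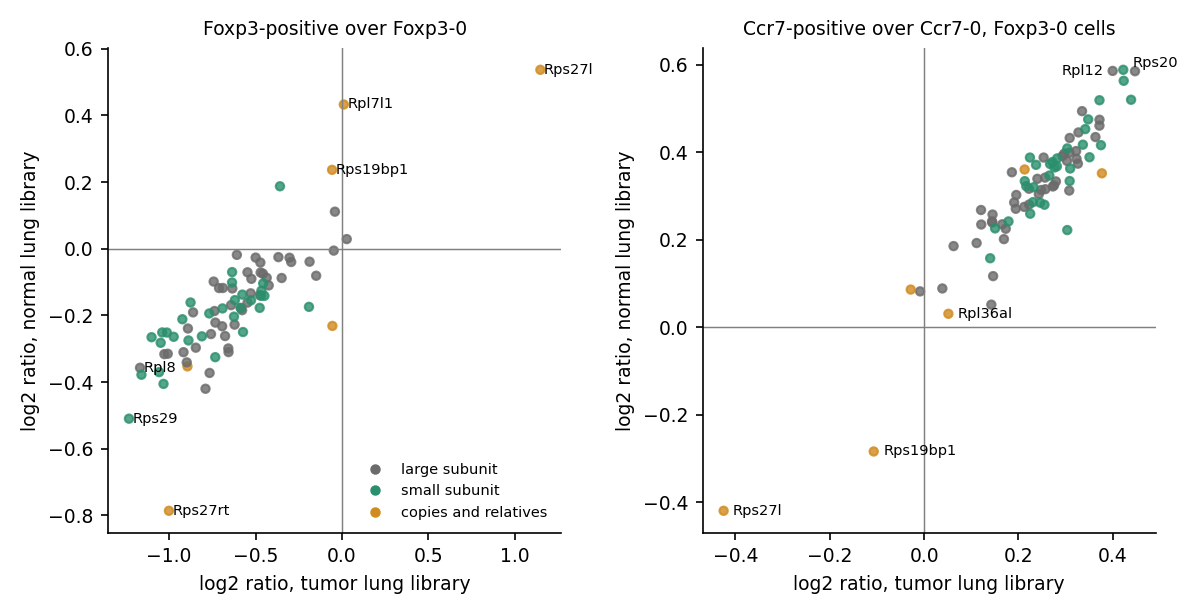
Log2 ratio of each member within the tumor library (x axis) against that within the normal library (y axis), for Foxp3-positive over Foxp3-0 cells (left) and for Ccr7-positive over Ccr7-0 cells among Foxp3-0 cells (right). Each point is a gene, colored by class. Points run along a diagonal (r 0.82 and 0.94), with Rps27l far from the others in both panels.

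The copies and relatives differed among themselves. In Foxp3-positive cells Rpl22l1, Rpl7l1 and Rps19bp1 lay close to the member median between tissues, at -0.09, -0.16 and 0.17 from it, and Rps27l, Rps27rt and Rpl36al lay above it. Rps27l, a paralog of Rps27 known as a target of p53, had 150 CPM in tumor and 107 CPM in normal Foxp3-positive cells, from 925 and 96 UMIs, a ratio of 1.41 (95% interval 1.14 to 1.76), where Rps27 was 1.70-fold lower. In Foxp3-0 cells it had 67.8 CPM in the tumor and 73.5 CPM in the normal library. It was therefore higher in Foxp3-positive than in Foxp3-0 cells in both libraries, 2.21-fold in the tumor library and 1.45-fold in the normal library. It was also lower in Ccr7-positive than in Ccr7-0 cells of the Foxp3-0 class, at a log2 ratio of -0.42 in both libraries.

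Rps27rt had few UMIs, 444 and 60 in Foxp3-positive cells of the tumor and normal libraries, and 72.1 and 66.7 CPM. In Foxp3-0 Ccr7-positive cells it had 148 and 117 CPM, a ratio of 1.26 (95% interval 1.20 to 1.33). In Foxp3-0 Ccr7-0 cells it had 128 and 91.4 CPM, a ratio of 1.40 (1.19 to 1.64). Rps27 itself had ratios of 0.971 and 1.03 in these groups, so the copy and its source gene differed in their ratio, within the limit on assigning their reads given above.

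Rpl36al, an autosomal copy of the X-linked Rpl36a, had 185 and 199 CPM in Foxp3-positive cells, a log2 ratio of -0.11 against -0.57 for Rpl36a. In Foxp3-0 Ccr7-0 cells Rpl36al stood at -0.30, with 186 and 229 CPM, while Rpl36a stood at 0.15. Rpl36al thus stood above Rpl36a in the first group and below it in the second. Rpl22l1 is the paralog of Rpl22, a large-subunit protein needed for the development of αβ T cells. Rpl22l1 had 651 and 983 CPM in Foxp3-positive cells, a log2 ratio of -0.59, against -0.29 for Rpl22, with 1796 and 2203 CPM.

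The remaining 2 relatives were sparse. Rpl7l1, a nucleolar relative of Rpl7, had 216 and 50 UMIs in Foxp3-positive cells and a log2 ratio of -0.66, close to the -0.62 of Rpl7. Within libraries it did not follow Rpl7: Foxp3-positive over Foxp3-0 cells gave 0.01 in the tumor library (-0.19 relative to the median of all genes), against -0.69 for Rpl7, and 0.43 in the normal library, against -0.12. Rps19bp1, a protein that binds Rps19 and is not part of the ribosome, had 119 and 22 UMIs and a ratio of 0.790 (0.499 to 1.31), which is not distinguishable from 1 at this depth. Of the standard genes whose paralog is not a member, Rpl3, Rpl39, Rpl10 and Rps4x had log2 ratios between tissues of -0.27, -0.43, -0.77 and -0.66 in Foxp3-positive cells.

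Other genes of the translation machinery were compared by list. Of ribosome components that the symbol rule misses, Rack1, a scaffold protein of the small subunit, had 1099 and 1749 CPM in Foxp3-positive cells, a log2 ratio of -0.67. Fau, a fusion of a ubiquitin-like protein and a small-subunit protein, stood at -0.27. Both lay within the range of the members.

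Over all genes tested in this comparison 25.5% were 1.5-fold higher and 6.99% lower, as given above. Among 16 elongation factors and other genes whose messages carry the tract, 0 were 1.5-fold higher or lower, and the median was -0.22. Eef1b2, an elongation factor subunit, stood lowest at -0.58, and Nap1l1, a histone chaperone, highest at 0.38. This list thus lay between the members and the median of all genes (0.21). Among 24 ribosome biogenesis genes tested, 10 were lower, 0 higher, and the median was -0.54. Tsr1, a maturation factor of the small subunit, was lowest at -1.01 from 92 and 27 UMIs, and Ncl (nucleolin) stood at 0.03, which is below the median of all genes.

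Mitochondrial ribosomal proteins and translation control genes did not follow the cytosolic members. Of 72 mitochondrial ribosomal protein genes tested, 12 were 1.5-fold higher and 1 lower in tumor Foxp3-positive cells, both smaller shares than over all genes (25.5% and 6.99%), with a median of 0.25, near that of all genes. Among 15 translation control genes 5 were higher and 1 lower, with a median of 0.13, below that of all genes. The highest was Eif4ebp1, an mTOR-regulated repressor of translation initiation, with 28.6 and 8.89 CPM from 176 and 8 UMIs, and the lowest was Eif4ebp2, of the same family, with 71.6 and 112 CPM. In Foxp3-0 Ccr7-positive cells the biogenesis genes had a median of -0.09 and the mitochondrial ones -0.03.

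**Figure D5:**
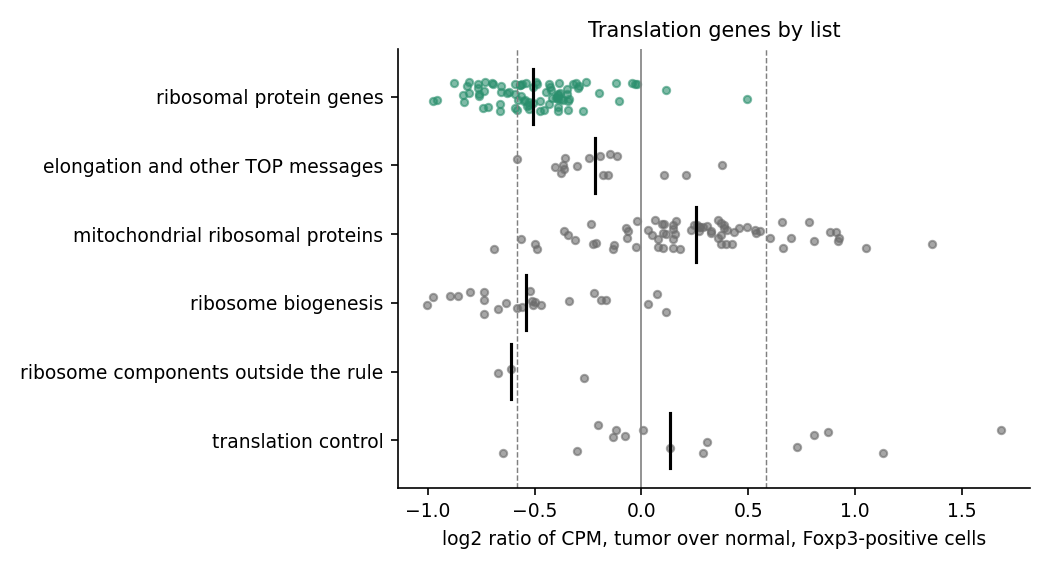
Log2 ratio of CPM, tumor over normal, in Foxp3-positive cells (x axis) for each gene of 6 lists (y axis); black bars are medians, dashed lines mark 1.5-fold, and points carry no replicate error. The medians of the cytosolic ribosomal protein genes (-0.51) and biogenesis genes (-0.54) lie left of 0, although single genes such as Rps27l, Rps27rt and Ncl lie right of it. The mitochondrial ribosomal protein genes (median 0.25) lie mostly right of 0. When ratios are scaled to the median of all genes, 0.21, Rps27rt, Ncl and the translation control median lie below 0.

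The ribosomal share differed with several genes of cell state in both libraries. In Foxp3-0 cells of the tumor library, those with a UMI of S100a4, a gene of effector and memory cells, held 24.0% (270 cells) and those without held 35.3%. In the normal library the shares were 23.1% (254 cells) and 36.3%. For Ccl5, a chemokine of effector cells, they were 24.3% with and 35.0% without in the tumor library, and 23.8% and 36.2% in the normal library. For Lef1, a transcription factor of naive cells, the order was the other way. The shares were 35.5% with and 29.1% without in the tumor library, and 36.3% and 30.6% in the normal library. Of the naive genes other than Ccr7, Lef1 had the widest gap in both libraries. For S1pr1 the shares were 35.0% with and 32.9% without in the tumor library, but 35.6% and 36.2% in the normal library. In the normal library Tcf7 and Klf2 differed by only 1.62 and 1.29 points, in the direction of Lef1. Cells with S100a4 were deeper in the tumor library, with medians of 5517 against 4081 UMIs, and in the normal library, with 4412 against 3893.

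In tumor Foxp3-positive cells the contrast depended on the gene. With a UMI of Tnfrsf9, an activation receptor of regulatory T cells, they held 20.5% (902 cells), and without 27.0% (245 cells). Of the same activation list, Pdcd1 (20.1% with and 24.3% without) and Icos (21.2% and 25.4%) went the same way. Mif and Nr4a1 went the other way. Cells with Mif, a cytokine, held 22.3% and those without 20.0%. Cells with Nr4a1, an early gene of receptor signaling, held 21.8% and those without 20.1%. For each gene of this list the cells with a UMI were deeper, for Mif with medians of 5227 against 4040.5 UMIs. With Tcf7, a transcription factor of naive cells, they held 28.0% (162 cells), and without 20.4%. In the normal library 50 Foxp3-positive cells had Tnfrsf9 and held 27.6%, against 32.5% in the 156 without. There S1pr1, a naive gene for leaving tissues, ran against Tcf7 and Lef1, with 30.7% in cells that had it and 32.9% in those without. The naive genes themselves were lower and Tnfrsf9 was higher in tumor than in normal Foxp3-positive cells, 57.1 and 218 CPM for Tcf7 and 1144 and 119 CPM for Tnfrsf9. All 6 naive genes listed, Ccr7 among them, were at least 1.5-fold lower there, and the part of cell makeup in the ribosomal difference was not tested beyond the Ccr7 split above. Of other cell types, the 4 epithelial markers summed to 36.9 CPM in tumor and 3.33 CPM in normal Foxp3-positive cells with Krt8 at 0 in both, and the fibroblast markers were all at 0 there.

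Cells of expanded clones, those whose receptor was shared by at least 1 other kept cell, held smaller ribosomal shares. In Foxp3-0 cells of the tumor library the share was 21.6% in 95 cells of 51 clones and 34.9% in 4714 cells with a receptor of their own. In the normal library it was 25.2% in 192 cells of 76 clones and 35.9% in 5117 cells. The expanded normal cells were shallow, with a median of 2529.5 UMIs against 3980. Among Ccr7-0 ones they were deeper (4211.5 against 3698.5), and the shares were 20.9% in 88 expanded cells and 30.1% in 412 others. Among Ccr7-positive ones of the normal library the gap was smaller, with 32.7% in 104 expanded cells and 36.4% in 4705 others (median depths 1918 and 4010). In the tumor library it was not smaller. There the Ccr7-positive shares were 24.4% in only 18 expanded cells and 35.7% in 3921 others (median depths 6123 and 4203). The Ccr7-0 shares there were 20.8% in 77 expanded cells and 30.6% in 793 others. The part of Ccr7 makeup in the pooled gap was not tested. In Foxp3-positive cells the share was 18.9% in 268 cells of 107 clones and 22.7% in 628 cells of the tumor library. In the normal library these shares were 25.1% and 30.5%, where only 9 cells were in expanded clones.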

How the data were processed

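Per the file headers, the authors' deposited tables held unnormalized UMI counts for every gene and barcode from Cell Ranger 3.1.0, on mm10 per the submitters' processing notes. The receptor assembler's version is not given in the sources used here. CPM, ratios and shares were computed in Python 3.11.15 (numpy 2.4.6, scipy 1.17.1, pandas 2.3.3, with matplotlib 3.10.9 for plots). Cells were kept with at least 500 genes, under 10% mitochondrial UMIs, and at most 2 productive alpha chains and 1 productive beta chain. The first pair of limits removed 120 tumor and 61 normal cells, and the chain limit, which served as the treatment of doublets, 533 and 602; no doublet caller was run. Counts were summed per library and group. Genes with at least 100 UMIs over both sides of a comparison were compared, with a floor of 3 counts for a side with fewer than 3. Intervals are exact at 95%, Clopper-Pearson for shares and conditional on the total for ratios, and the ratio code was tested on simulated data. Members named were those with at least 100 UMIs in the higher group that lay 0.3 log2 or more from the member median (up to 10 a direction between tissues and 5 within a library), the 10 members with most UMIs, the paralog pairs, and Fau and Rack1; some items the rule names are not reported here. Genes of other lists and genes of cell state were picked for naming after their values were seen. Gene starts are from RefSeq GRCm38.p6. Members and lists were chosen with earlier results of these data known. Alternatives were no cell filter, a strict one (1000 genes, 5%), thinning to 2417 UMIs, positivity at 2 UMIs, means over cells, other denominators and scalings, other count minimums (1000 UMIs, or none) and, chosen after seeing the data, the Ccr7 makeup of the normal library.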

Additional observations from a re-analysis of the deposited data

Results flagged for a closer look

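The ribosomal share differed between tissues in opposite directions in some cell groups: the log2 ratio, tumor over normal, was -0.52 in Foxp3-positive cells and -0.03 in Foxp3-0 Ccr7-positive cells, and 0.05 in Foxp3-0 Ccr7-0 cells. The difference between the groups was not tested, since each rests on 1 library per tissue. A different pattern, below 1 in Foxp3-positive cells and above 1 in both other groups with every counting interval away from 1, held for 15 members. Among the members named here these were 3. How many of all genes had that pattern was not counted, and counting intervals are narrow for genes with as many UMIs as most members. Rpl8 stood at -0.81, 0.02 and 0.11 in Foxp3-positive, Foxp3-0 Ccr7-positive and Foxp3-0 Ccr7-0 cells, where the 0.02 is no higher than the median of all genes in that group (0.02). Rpl3, part of the catalytic center of the large subunit, stood at -0.27, 0.11 and 0.21. Rpsa stood at -0.30, 0.02 and 0.05, the 0.02 again no higher than the median of all genes. For none of these members was the difference between groups tested.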

How the results depend on the processing

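Each log2 share ratio and each median member ratio kept its sign under every alternative run. Values that moved by more than their counting interval are given here as log2 share ratios. Between tissues, Foxp3-positive cells gave -0.539 thinned, -0.455 with positivity at 2 UMIs, -0.556 as a mean over cells, -0.533 without mitochondrial and receptor genes in the denominator, and -0.345 at the normal library's Ccr7 makeup (chosen after seeing the data). Foxp3-0 Ccr7-positive cells gave -0.037 thinned, -0.031 at 2 UMIs and -0.037 with the reduced denominator. Foxp3-0 Ccr7-0 cells gave 0.038 with no cell filter, 0.077 with the strict one, 0.071 thinned, 0.012 as a mean over cells and 0.047 with the reduced denominator. Foxp3-positive over Foxp3-0 cells gave, in tumor, -0.646 with no filter, -0.699 thinned, -0.708 at 2 UMIs, -0.704 as a mean and -0.685 with the reduced denominator, and in normal -0.177 with no filter, -0.207 thinned and -0.300 at 2 UMIs. Ccr7-positive over Ccr7-0 among Foxp3-0 cells gave, in tumor, 0.279 with no filter, 0.259 strict, 0.223 thinned, 0.274 at 2 UMIs, 0.271 as a mean and 0.272 with the reduced denominator, and in normal 0.370 strict, 0.331 thinned, 0.359 at 2 UMIs and 0.317 as a mean. Among Foxp3-positive cells it gave, in tumor, 0.415 with no filter, 0.417 thinned, 0.350 at 2 UMIs and 0.434 as a mean, and in normal 0.653 with no filter, 0.727 strict and 0.711 at 2 UMIs. Under median-of-ratios scaling the median member stood at -0.715 in Foxp3-positive and -0.043 in Foxp3-0 Ccr7-positive cells, and 62 members in place of 27 were 1.5-fold lower in Foxp3-positive cells; scaled to UMIs outside the members these were -0.694, -0.042 and 53, since both scalings set the members against genes that were higher. After thinning, 1 member was 1.5-fold higher in Foxp3-positive cells and 1 in Foxp3-0 Ccr7-0 cells, in place of 0. Under these scalings and after thinning, the share of all genes past the mark was not counted. For the other moves the cause was not tested. Depth limits Rps27l, Rps27rt, Rpl7l1 and Rps19bp1, with 96 or fewer UMIs each in normal Foxp3-positive cells. No paired analysis was possible because each tissue has 1 library and no test was run.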
